A study of Mus musculus with 12 samples.

Results

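Liver mRNA of mice breathing 7% O2 was compared with that of mice breathing 21% O2, when all of them had received dexamethasone (DEX), a synthetic agonist of the glucocorticoid receptor. The comparison took 6 of the series' 12 libraries, picked by their labels: Hypoxia_DEX-1, Hypoxia_DEX-2 and Hypoxia_DEX-3 against Normoxia_DEX-1, Normoxia_DEX-2 and Normoxia_DEX-3. All mice were C57BL/6J, and no allele is named in the labels used here. The Hypoxia_DEX mice spent 24 h at 7% O2, received DEX at 10 mg/kg into the peritoneum and returned to 7% O2, whereas the Normoxia_DEX mice stayed at 21% O2 and received the same dose. Livers were taken 2 h after injection. One sentence of the deposited protocol names the arm in normal air hypoxia too; the sample titles, which say normoxia, were followed. The other 6 libraries, Hypoxia_PBS and Normoxia_PBS with 3 each, came from mice injected with vehicle, and they enter below only to test whether the oxygen effect differed with DEX. The series title asks how hypoxia alters the function of the glucocorticoid receptor. Holding DEX constant asks which liver genes depended on oxygen under the same high dose of ligand. Receptor occupancy was not measured, so saturation by this dose is an assumption of the design.

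The glucocorticoid receptor is a transcription factor that enters the nucleus when it binds a steroid. In liver it drives genes of glucose production, amino acid breakdown and stress defence. Low oxygen is sensed by prolyl hydroxylases, which stop marking the alpha subunits of the hypoxia-inducible factors (HIF) for destruction by the von Hippel-Lindau protein, so that HIF accumulates and activates genes of glycolysis, mitophagy and vessel growth. Fasting-like states, in which the receptor PPARα turns on the burning of fat and the making of ketones, act on many of the same liver enzymes.

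Total counts per library ran from 12464687 in Hypoxia_DEX-2 to 24715995 in Normoxia_DEX-2. The summed level of 10 hepatocyte markers, among them albumin, was 138155 to 160642 CPM per library (CPM are counts scaled to the size of the library) and checks the labelled tissue. On the 1000 most variable genes component 1 explained 86.1% of the variance and split the libraries by oxygen. Component 2 explained 7.24% and set Hypoxia_DEX-2, at 17.27, apart from its group mates at -8.45 and -7.99. Of 9077 genes with a mean of at least 5 CPM, 109 were over 2-fold higher and 12 over 2-fold lower in Hypoxia_DEX-2 than in the mean of the other hypoxia libraries. Hypoxia_DEX-1 and Hypoxia_DEX-3 in turn were over 2-fold apart in 1 gene. The chi-square between their counts averaged 1.79 a gene, where replicates elsewhere in the series gave 10.5 to 38.4. They differed by more than sampling noise, which does not show that they came from separate animals. Whether they share an animal or an RNA sample was not tested. They were kept as separate samples, so the means and main p-values below count them as independent replicates. Counts of genes are given below also with this pair summed into 1 library and without Hypoxia_DEX-2.

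A large share of the expressed genes differed with oxygen. Of 12236 genes tested, 5919 (48.4%) passed an adjusted p of 0.05 in the quasi-likelihood test of edgeR, adjusted by Benjamini-Hochberg, which is the test behind every adjusted p below. At 7% O2 2921 genes were higher (23.9%) and 2998 lower (24.5%), of which 633 and 739 by at least 2-fold. The median log2 fold change over all genes was -0.01. The groups did not overlap in 7235 genes (59.1%). These shares are the background for the counts of gene lists that follow. With the near-identical pair summed, 2464 genes were higher and 2400 lower, and without Hypoxia_DEX-2 3045 and 3165. Every fold change below is hypoxia over normoxia on the log2 scale, with its standard error (SE). Every mean is given ± SD with n = 3 libraries.

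**Figure D1:**
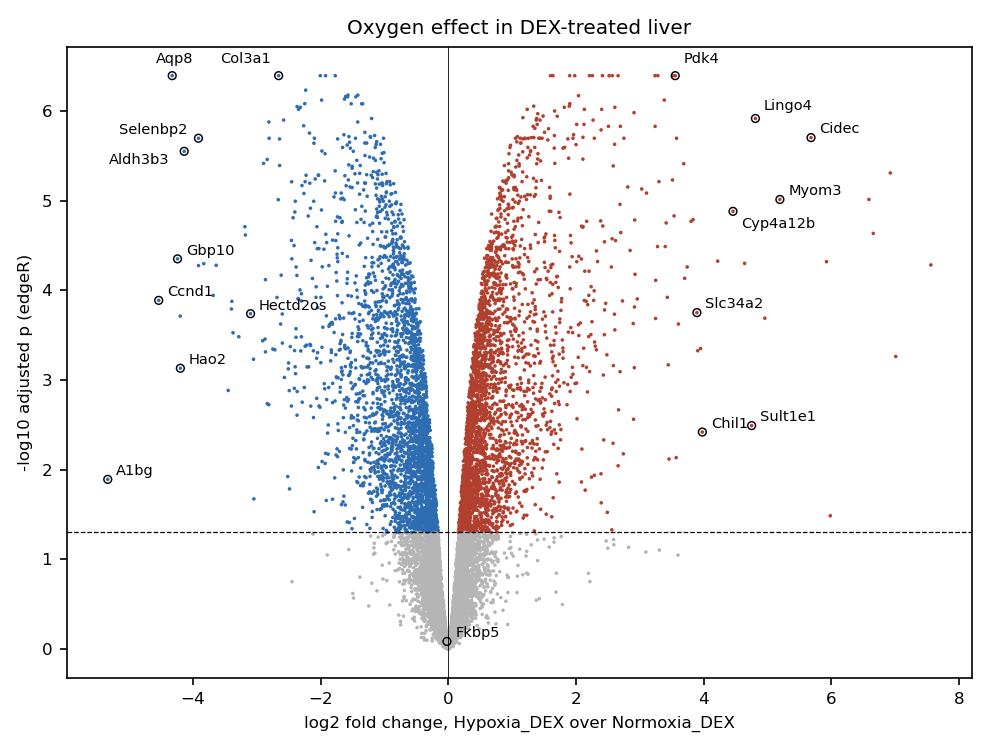
Each point is 1 of the 12236 genes tested, with the log2 fold change of Hypoxia_DEX over Normoxia_DEX on the x axis and -log10 of the edgeR adjusted p on the y axis (red, higher at 7% O2; blue, lower; grey, adjusted p of 0.05 or more, the dashed line). Circles mark genes named in the text, from A1bg at -5.33 to Cidec at 5.68, with Fkbp5 at -0.02 near the origin.

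The largest rises and falls were steep. Ccnd1, which encodes cyclin D1, the driver of entry into the cell cycle, stood at 8.54, 15.1 and 8.30 CPM in the hypoxia libraries and at 283, 245 and 197 CPM in the normoxia libraries (log2 fold change -4.54, SE 0.29, adjusted p = 0.000129). The highest hypoxia library stayed far below the lowest normoxia library. The gene lies on chromosome 7 from 144929931 to 144939925 of mm10. Aqp8, a channel for water and ammonia, fell from 94.8 ± 17.4 CPM to 4.72 ± 0.355 CPM (-4.33, SE 0.15, adjusted p = 4.03e-07). The other large falls were in Gbp10 (-4.24), which encodes a guanylate-binding protein, Hao2 (-4.20), a peroxisomal hydroxyacid oxidase, Aldh3b3 (-4.14), Selenbp2 (-3.91) and the non-coding RNA Hectd2os (-3.10), with adjusted p from 2.01e-06 to 0.000738. A1bg fell by 5.33, from 295, 622 and 210.5 CPM to 3.81, 21.4 and 4.65 CPM, and its adjusted p of 0.0128 became 0.053 without Hypoxia_DEX-3.

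Among the rises, Cidec, which encodes a protein that enlarges lipid droplets, stood at 35.1, 22.1 and 34.7 CPM at 7% O2 and at 0.656, 0.630 and 0.475 CPM at 21% O2 (5.68, SE 0.26, adjusted p = 1.98e-06). Sult1e1, an estrogen sulfotransferase that glucocorticoids induce in liver, stood at 190.3, 140.4 and 205 CPM against 3.06, 11.8 and 4.22 CPM (4.75, SE 0.58, adjusted p = 0.00322). Both genes were near the floor of detection or low in every normoxia library and clearly expressed in every hypoxia library. Myom3, a muscle sarcomere gene, rose from 0.665 ± 0.249 to 23.7 ± 6.42 CPM (5.19), while the other 7 muscle markers on the list did not reach the expression filter. Myom3 was below 1 CPM in every normoxia library and reached that filter only through the hypoxia libraries. Lingo4 rose by 4.81, Chil1, a chitinase-like protein, by 3.98 and Slc34a2, a phosphate transporter, by 3.89, with adjusted p from 1.21e-06 to 0.0038. Cyp4a12b rose by 4.46 (adjusted p = 1.31e-05), at low levels of 5.64, 3.80 and 6.17 CPM, and reads may be shared with its near-identical copy Cyp4a12a.

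Genes listed as targets of the glucocorticoid receptor did not move together. A place on the list does not show that a gene responded to DEX in these mice. Of 36 tested, 10 rose and 12 fell, with a median of 0.04, against 23.9% and 24.5% of all genes. The receptor gene itself, Nr3c1, stood at 68.2 ± 1.36 CPM at 7% O2 and 66.6 ± 2.28 CPM at 21% O2 (0.04, adjusted p = 0.661). Fkbp5, a co-chaperone and a standard readout of receptor activity, stood at 513, 527 and 488 CPM at 7% O2 against 503, 551 and 497 CPM at 21% O2 (-0.02, SE 0.07, adjusted p = 0.822). The libraries of the groups overlapped. Tat, tyrosine aminotransferase, stood at 4949.9, 4794 and 4888 CPM against 4307, 4269 and 4731 CPM, a difference that did not pass (0.14, adjusted p = 0.142) although the groups did not overlap.

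Other targets went apart. Tsc22d3, which encodes the anti-inflammatory protein GILZ, stood at 57.2, 54.3 and 53.7 CPM at 7% O2 and at 131, 171 and 167 CPM at 21% O2 (-1.51, SE 0.10, adjusted p = 4.14e-06). Sgk1, a kinase that regulates ion transport and was chosen here after its values were seen, stood at 57.3, 70.5 and 55.6 CPM against 108, 130.0 and 133 CPM (-1.02, SE 0.11, adjusted p = 9.62e-05). In both genes all hypoxia libraries lay below all normoxia libraries. Ddit4, an inhibitor of the growth kinase mTORC1, fell by 0.73 (adjusted p = 0.0102, and 0.051 without Normoxia_DEX-2). Against these, Pdk4, the kinase that shuts pyruvate out of the mitochondrial citric acid cycle, stood at 158, 159.5 and 174 CPM at 7% O2 and at 12.9, 12.1 and 17.04 CPM at 21% O2 (3.55, SE 0.13, adjusted p = 4.03e-07). It is on chromosome 6 from 5483351 to 5496309. The clock gene Per1, also a direct receptor target, rose from 23.6 ± 3.04 to 41.8 ± 2.99 CPM (0.82, adjusted p = 0.000125). With the near-identical hypoxia pair summed 11 targets rose and 9 fell, and without Hypoxia_DEX-2 12 and 13.

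**Figure D2:**
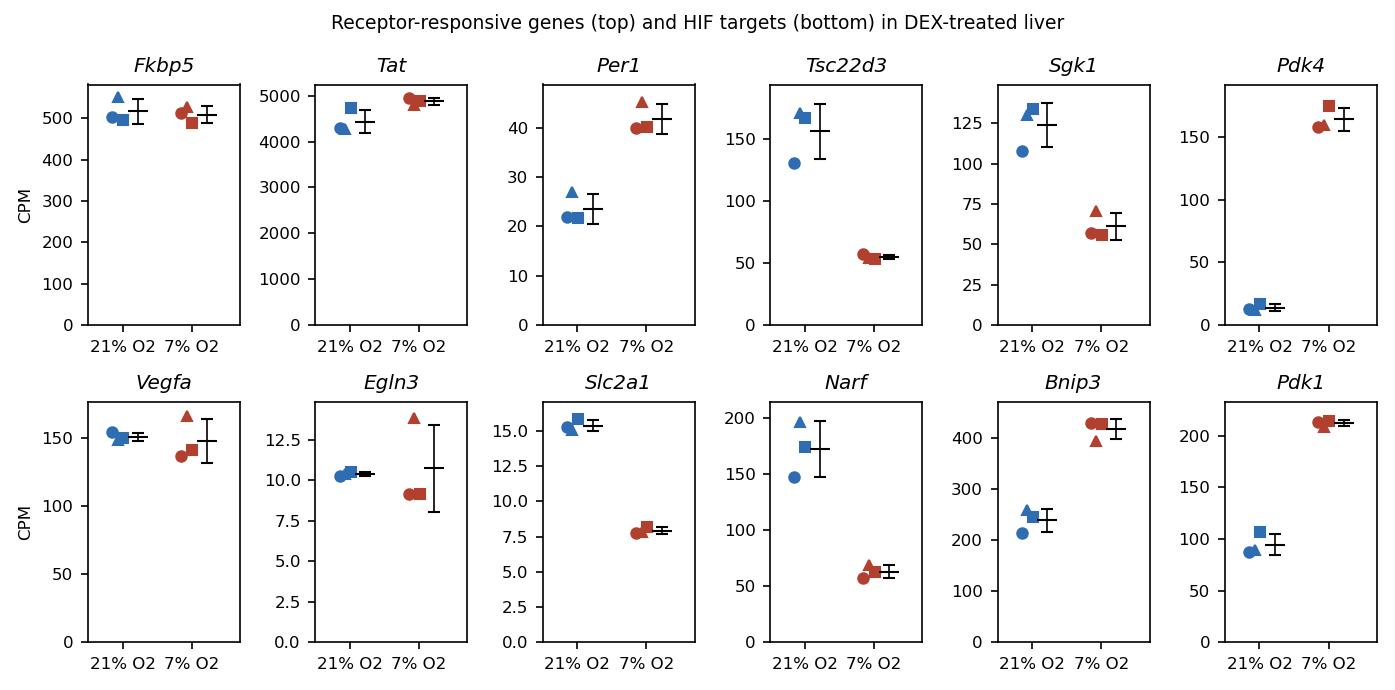
CPM of 6 genes of the glucocorticoid target list (top row) and 6 HIF targets (bottom row) in the 3 Normoxia_DEX (blue) and 3 Hypoxia_DEX (red) libraries; circles, triangles and squares are replicates 1, 2 and 3, and bars are mean ± SD. Fkbp5 and Vegfa overlap between groups, Tsc22d3, Sgk1, Slc2a1 and Narf are lower in every hypoxia library, and Pdk4, Bnip3 and Pdk1 are higher in every one.

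Some genes for proteins that carry, bind or clear the hormone differed as well. Of 19 genes for the receptor, its chaperones and steroid handling, 3 rose and 8 fell. Serpina6, which encodes corticosteroid-binding globulin, the blood carrier of glucocorticoids, stood at 28.7, 38.3 and 28.99 CPM against 165, 299 and 232 CPM (-2.86, SE 0.26, adjusted p = 0.000485), without overlap. The steroid 5-alpha-reductase gene Srd5a1 fell by 2.58 (adjusted p = 1.26e-06) while its 5-beta counterpart Akr1d1 rose by 0.63 (adjusted p = 0.000172). The heat shock gene Hspa1b fell by 1.77 (adjusted p = 4.65e-06).

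The HIF targets split in direction in the same way. Of 27 tested of 30 listed, 8 rose and 7 fell with a median of 0.02, close to the background of all genes. The promoters of 3 genes are shown because these were the HIF targets with the largest called rise that had an entry in the promoter table and held a core HIF motif. Each is 300 bases from RefSeq on GRCm38.p6 and spans the start annotated there, 5′ to 3′ on the gene's strand. Capitals mark ACGTG or GCGTG on either strand (CACGT and CACGC when read on the opposite strand), and neighbouring or palindromic matches overlap. The Pdk1 promoter is at chr2:71872974-71873273 (plus strand) with 2 matches and is the first of 2 entries of that gene, that of Bnip3 at chr7:138909457-138909756 (minus strand) with 5, and that of Higd1a at chr9:121857747-121858046 (minus strand) with 3. The GENCODE model of Higd1a, the source of gene positions elsewhere in the text, starts upstream of that window, at 121858362.
Pdk1: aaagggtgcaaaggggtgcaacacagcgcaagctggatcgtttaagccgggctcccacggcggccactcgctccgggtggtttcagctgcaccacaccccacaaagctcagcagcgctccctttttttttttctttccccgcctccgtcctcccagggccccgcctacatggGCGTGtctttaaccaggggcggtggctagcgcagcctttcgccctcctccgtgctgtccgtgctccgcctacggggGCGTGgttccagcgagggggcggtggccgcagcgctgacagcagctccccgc
Bnip3: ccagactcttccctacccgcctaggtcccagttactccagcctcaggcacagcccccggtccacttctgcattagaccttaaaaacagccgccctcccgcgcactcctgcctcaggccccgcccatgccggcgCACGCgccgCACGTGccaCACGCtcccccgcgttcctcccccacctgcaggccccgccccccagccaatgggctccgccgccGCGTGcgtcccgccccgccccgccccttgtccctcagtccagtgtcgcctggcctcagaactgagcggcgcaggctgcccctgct
Higd1a: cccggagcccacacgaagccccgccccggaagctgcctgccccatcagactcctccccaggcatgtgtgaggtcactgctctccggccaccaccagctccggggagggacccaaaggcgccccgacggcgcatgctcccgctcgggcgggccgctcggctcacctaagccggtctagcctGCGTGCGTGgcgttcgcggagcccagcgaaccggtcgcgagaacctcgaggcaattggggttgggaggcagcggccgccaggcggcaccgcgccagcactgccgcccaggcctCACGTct
Such 5-base matches are common. They occurred in 43.8% of 32851 promoters in the table, in 62.6% of 9334 tested genes with an entry, in 66.8% of those called higher and 57.5% of those called lower, in 59.9% of those at least 2-fold higher and 47.1% of those at least 2-fold lower, and in 16 of 19 HIF targets. A match is a string of letters and not evidence of binding.

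Pdk1, which like Pdk4 keeps pyruvate from oxidation, stood at 213, 209 and 215 CPM at 7% O2 and 87.7, 89.7 and 107 CPM at 21% O2 (1.17, SE 0.08, adjusted p = 4.78e-06). The mitophagy receptor Bnip3 stood at 429.7, 394 and 427 CPM against 215, 259 and 244 CPM (0.80, SE 0.08, adjusted p = 4.59e-05). Higd1a, a small protein of the mitochondrial inner membrane, rose by 0.50 (adjusted p = 0.00121), and the transcriptional repressor Bhlhe40 from 64.5 ± 13.8 to 166 ± 7.27 CPM (1.36, adjusted p = 0.000164). In each of these 4 genes every hypoxia library exceeded every normoxia library.

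Other HIF targets fell or stayed level. Slc2a1, the glucose transporter GLUT1, stood at 7.74, 7.85 and 8.20 CPM at 7% O2 and 15.3, 15.05 and 15.9 CPM at 21% O2 (-0.95, SE 0.09, adjusted p = 3.2e-05). Narf and Ndrg1 fell as well (-1.46 and -1.54, adjusted p = 1.26e-05 and 2.6e-06), with no overlap of the groups. Vegfa, the growth factor for vessels, stood at 136, 166 and 141 CPM against 154, 148 and 149.8 CPM (-0.03, SE 0.08, adjusted p = 0.799). The oxygen sensor Egln3 stood at 9.17, 13.8 and 9.16 CPM against 10.3, 10.4 and 10.5 CPM (0.02, adjusted p = 0.907). Only Hypoxia_DEX-2 exceeded normoxia in either gene. Ldha, lactate dehydrogenase, rose by 0.30 (adjusted p = 0.0304, up to 0.0989 when Normoxia_DEX-1 or Normoxia_DEX-3 was left out). Of the HIF machinery itself, the mRNA of Hif1a rose by 0.43 and that of Epas1, which encodes HIF-2α, fell by 0.26 (adjusted p = 0.00176 and 0.00668). Cited2, a negative regulator of HIF, fell by 1.19 and the asparagine hydroxylase Hif1an fell by 0.34 (adjusted p = 0.00355 and 0.00818). HIF acts mainly through protein stability, which mRNA does not show.

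Most genes of glycolysis were higher. Of 21 glycolysis genes 13 rose and 3 fell, with a median of 0.58. The enolase gene Eno1 stood at 573, 511 and 567 CPM at 7% O2 and 180.2, 155 and 185 CPM at 21% O2 (1.67, SE 0.09, adjusted p = 9.98e-07). Gpi1, which interconverts glucose and fructose phosphates, stood at 349, 267 and 370.5 CPM against 107, 106 and 113 CPM (1.60, SE 0.11, adjusted p = 8.92e-06). The liver pyruvate kinase Pklr rose from 181 ± 22.4 to 533 ± 32.9 CPM (1.56, adjusted p = 2.1e-06). Several glycolytic enzymes run in both directions, so the count does not give the direction of flux.

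Of 14 gluconeogenesis genes 8 rose and 1 fell, with a median of 0.52. Pcx, pyruvate carboxylase, which opens the path to glucose, rose from 607 ± 11.3 to 1430.2 ± 23.9 CPM (1.24, adjusted p = 9.58e-07), and the glucose-6-phosphate transporter Slc37a4 by 1.29 (adjusted p = 2.82e-06). The membrane-bound regulator Creb3l3 rose by 1.08 (adjusted p = 3.55e-06). Pck1, the classic rate-setting enzyme, moved the other way, at 1614, 1346 and 1602 CPM against 2194, 2067 and 2618 CPM (-0.59, SE 0.11, adjusted p = 0.00131). G6pc, which releases free glucose, stood at 182, 50.9 and 189 CPM against 20.3, 13.3 and 38.8 CPM (2.56, SE 0.73, adjusted p = 0.0468). The groups did not overlap, but that call was lost when Hypoxia_DEX-1, Hypoxia_DEX-3 or any 1 normoxia library was left out, without a count filter, and with the hypoxia pair summed (adjusted p up to 0.135), when 6 genes of the list rose. Amino acid breakdown and the urea cycle had 11 of 30 genes up and 11 down. Asl and Arg1 of the urea cycle rose by 1.44 and 1.06, whereas the glutaminase Gls2 fell by 1.22 and the cysteine-forming enzyme Cth fell by 0.86 (adjusted p from 1.26e-06 to 0.00131).

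Genes of fatty acid oxidation and ketogenesis rose almost as a block. Of 31 tested genes 26 rose and 1 fell, with a median of 0.78, and Fgf21, a fasting hormone on the list, did not pass the expression filter. Besides Pdk4, the microsomal fatty acid hydroxylases Cyp4a10 and Cyp4a14 led. Cyp4a10 stood at 3836, 4945 and 3964 CPM at 7% O2 and 650.3, 707 and 659 CPM at 21% O2 (2.66, SE 0.11, adjusted p = 4.03e-07), and Cyp4a14 at 5603 ± 45.2 against 978 ± 131 CPM (2.52, adjusted p = 4.03e-07). Cyp4a31 rose by 2.01 (adjusted p = 4.79e-05), and this family shares sequence, so reads may be split among its members. Cpt1a, the gate for fatty acids into mitochondria, stood at 720.3, 712 and 729.9 CPM against 360.1, 369 and 371 CPM (0.97, SE 0.06, adjusted p = 2.41e-06). All 3 hypoxia libraries exceeded all normoxia libraries in each of these genes. Without Hypoxia_DEX-2 the same list had 26 genes up and 4 down.

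Genes of lipid droplets and lipoproteins went both ways. Of 31 tested 15 rose and 8 fell. Next to Cidec, Apoa4, an apolipoprotein of triglyceride-rich particles, stood at 1973, 1460.2 and 2013 CPM against 164, 130.4 and 183 CPM (3.51, SE 0.18, adjusted p = 5.87e-06). Angptl4, an inhibitor of lipoprotein lipase and a target of both PPAR and the glucocorticoid receptor, rose by 1.44 (adjusted p = 7.58e-05), while Lpl, the lipase itself, fell by 2.32 and the fatty acid carrier Fabp5 fell by 2.81 (adjusted p = 9.09e-07 and 0.00188). Lipogenesis was mixed, with 8 of 22 genes up and 8 down. Fads1, a desaturase of polyunsaturated fats, fell from 536 ± 10.3 to 182 ± 29.2 CPM (-1.56, adjusted p = 3.98e-06), and Pnpla3, a lipid droplet protein induced by feeding, fell by 2.57 (adjusted p = 0.000936). Markers of fat cells are few in the test: 3 of 8 passed the filter (Cidec, Plin4 and Fabp4), all 3 rose, and their sum was 131 to 154 CPM at 7% O2 and 69.6 to 75.9 CPM at 21% O2. Cidec, below 1 CPM in every normoxia library, passed the filter only through the hypoxia libraries, so its rise adds no support. It supplied 22.1 to 35.1 CPM of the sum at 7% O2. Plin4 stood at 93.8 ± 6.18 against 57.2 ± 4.31 CPM, and Fabp4 at 21.3 ± 0.219 against 13.96 ± 1.40 CPM. Adiponectin, leptin and the other 3 did not pass the filter. The part of fat tissue in the result was not tested.

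Genes of cholesterol synthesis had a median of -0.72, but few genes passed: 0 of 24 rose and 7 fell, 3 with the hypoxia pair summed and 13 without Hypoxia_DEX-2. Sc5d, which acts late in the pathway, stood at 98.8, 133 and 102 CPM against 416, 448 and 406 CPM (-1.93, SE 0.12, adjusted p = 2.99e-06). Nsdhl stood at 16.2, 32.2 and 15.2 CPM against 81.1, 47.9 and 67.4 CPM (-1.65, adjusted p = 0.0228), and Pmvk at 15.9, 27.8 and 13.1 CPM against 57.4, 36.3 and 47.9 CPM (-1.34, adjusted p = 0.0263). In both, Hypoxia_DEX-2 was the highest of its group and Normoxia_DEX-2 the lowest, and both calls were lost without Hypoxia_DEX-1, Hypoxia_DEX-3, Normoxia_DEX-1 or Normoxia_DEX-3 and also with the replicate block, with the hypoxia pair summed, with all 12 libraries in the fit and without a count filter (adjusted p up to 0.0965 over the alternatives).

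Bile acid genes were balanced, with 7 of 19 up and 7 down. The uptake carrier Slc10a1 rose from 605 ± 30.6 to 1602 ± 178 CPM (1.40, adjusted p = 2.99e-06), and the export pump Abcb11 fell from 967 ± 55.8 to 225 ± 39.3 CPM (-2.11, adjusted p = 2.29e-06). The organic anion carrier Slco1a1 fell by 2.41 (adjusted p = 0.00124). Cyp7a1, the rate-limiting enzyme of bile acid synthesis, stood at 166, 127 and 164 CPM against 161, 259 and 79.5 CPM (-0.13, SE 0.47, adjusted p = 0.844). The normoxia libraries spanned the whole range, which leaves this gene undetermined. Drug metabolism had 11 of 34 genes up and 14 down. Nr1i3, the xenobiotic sensor CAR, rose from 131 ± 8.09 to 407 ± 12.02 CPM (1.64, adjusted p = 4.03e-07), while Cyp1a2 and the glutathione transferase Gstm3 fell (-1.39 and -2.17, adjusted p = 4.96e-06 and 1.76e-06).

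Nuclear genes of respiration and genes of translation rose modestly and broadly. Of 39 nuclear genes of the respiratory chain 35 rose and 0 fell, with a median of 0.40. Cycs, cytochrome c, stood at 35.8, 27.9 and 33.7 CPM at 7% O2 and 14.9, 13.6 and 17.2 CPM at 21% O2 (1.10, adjusted p = 5.49e-05), and the ATP synthase subunit Atp5a1 rose from 794 ± 31.9 to 1339 ± 0.704 CPM (0.75, adjusted p = 1.58e-05). Of 10 tested mitochondrially encoded genes 3 rose and 0 fell, led by mt-Nd5 at 0.56 (adjusted p = 0.000529). That share of rises was close to the 23.9% of all genes. Of 34 cytosolic ribosomal protein genes 29 rose and 0 fell, with a median of 0.40, among them Rpl3 (0.69, adjusted p = 2.96e-05) and Rpsa (0.61, adjusted p = 6.77e-05). Ribosomal protein genes have many processed copies that can share reads. With the hypoxia pair summed 33 and 28 of these lists rose and none fell. In the stress response of the endoplasmic reticulum 13 of 23 genes rose and 3 fell (median 0.51), with the transcription factor Xbp1 up by 0.77 and the cell-death regulator Ddit3 up by 1.29, and Trib3 lower at -1.21 (adjusted p = 0.00137, 0.000696 and 0.000933).

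Genes of the circadian clock differed strongly. Of 18 tested 10 rose and 4 fell, with a median of 0.58. Per3 stood at 25.3, 16.8 and 25.6 CPM at 7% O2 and 1.31, 2.05 and 1.84 CPM at 21% O2 (3.69, SE 0.22, adjusted p = 3.87e-06), and Per2, a repressor of the clock's own activators, at 19.9, 16.8 and 20.5 CPM against 3.06, 3.51 and 2.73 CPM (2.61, SE 0.13, adjusted p = 9.09e-07). The output factor Dbp rose by 2.81 (adjusted p = 7.03e-06). In none of the 3 genes did the groups overlap. Liver clock genes cycle over the day, and the time of day at sampling is not given in the labels used here, so its part was not tested.

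Cell cycle genes leaned downward, and the lists of growth arrest and growth signals went both ways. Of 18 tested cell cycle genes 3 rose and 9 fell, with a median of -0.38, and 5 of 23 listed, among them Plk1 and Aurka, did not pass the filter. Ccnd2 fell by 1.12 (adjusted p = 0.0001). Among 22 growth arrest genes 6 rose and 6 fell, close to the shares of all genes. The DNA damage and stress gene Gadd45a stood at 39.8, 47.8 and 41.8 CPM against 6.62, 6.85 and 8.37 CPM (2.57, SE 0.11, adjusted p = 4.03e-07), the stress kinase Plk3 at 168, 139 and 182 CPM against 40.2, 35.5 and 36.1 CPM (2.13, SE 0.10, adjusted p = 9.58e-07), and Btg2, an antiproliferative gene, rose by 1.68 (adjusted p = 0.00069). All hypoxia libraries exceeded all normoxia libraries in the 3 genes. Of 22 genes of growth hormone, insulin and IGF signalling 8 rose and 5 fell. Irs2, the insulin receptor's adaptor, stood at 274, 322 and 288 CPM against 54.4, 35.4 and 47.5 CPM (2.69, SE 0.16, adjusted p = 1.1e-05). Socs3, a brake on cytokine receptors, rose from 28.4 ± 1.56 to 149 ± 24.1 CPM (2.39, adjusted p = 1.62e-06), and Lifr, the receptor of leukaemia inhibitory factor, fell by 2.09 (adjusted p = 2.93e-05). Igf1 stood at 540.4 ± 38.3 against 586 ± 53.9 CPM (-0.12, adjusted p = 0.285).

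Kupffer cell markers fell. Kupffer cells are the macrophages that live in the liver sinusoids, and of their 15 markers 14 fell and 0 rose, with a median of -1.24. Clec4f, specific to these cells, stood at 22.8, 20.9 and 22.4 CPM at 7% O2 and 113, 148 and 101 CPM at 21% O2 (-2.45, SE 0.14, adjusted p = 6.15e-06). The folate receptor Folr2, the adhesion receptor Adgre1 and the complement receptor Vsig4 fell (-2.64, -2.15 and -1.73, adjusted p from 2.05e-06 to 4.78e-05). The groups did not overlap in 14 of the 15. The summed level of the list was 418 to 458 CPM at 7% O2 and 769.7 to 1079.7 CPM at 21% O2. In whole liver, fewer cells of a type and less RNA per cell cannot be told apart.

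Interferon-stimulated genes fell with them: 22 of 27 were lower and 1, Mx2, higher, with a median of -1.14. Oas2, a sensor of viral RNA, fell from 8.93 ± 1.63 to 2.19 ± 0.312 CPM (-2.06, adjusted p = 1.95e-05) and Isg15, a ubiquitin-like modifier, from 7.17 ± 1.31 to 2.02 ± 0.382 CPM (-1.87, adjusted p = 5.29e-05). Of 28 genes of interferon-γ GTPases and antigen presentation 15 fell and 2 rose. The class II genes H2-Ab1 and H2-Aa, which macrophages and dendritic cells carry, fell (-1.98 and -1.73, adjusted p = 7.55e-07 and 2.05e-06). The Kupffer sum given above moves with these lists, and its part in their fall was not tested.

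Endothelial, stellate cell and hepatocyte markers moved less as lists, with medians of -0.24, -0.49 and -0.24. Of 14 endothelial markers 7 fell and 0 rose, and their sum was 537 to 549 CPM at 7% O2 and 653 to 720.2 CPM at 21% O2. Dnase1l3, of sinusoidal endothelium, fell by 0.85 (adjusted p = 3.34e-05). Of 14 markers of stellate cells, the liver's vitamin A storing fibroblasts, 10 fell and 1 rose. Their collagen Col3a1 stood at 5.46, 5.57 and 4.91 CPM against 36.9, 30.1 and 33.4 CPM (-2.66, SE 0.11, adjusted p = 4.03e-07), and the matrix protein Lum fell by 2.17 (adjusted p = 6.38e-06). Among 10 hepatocyte markers 5 fell and 0 rose, with a median of -0.24. Of 12 neutrophil markers 5 passed the filter and 1, Retnlg, rose, at 4.50, 10.2 and 3.54 CPM against 1.53, 0.591 and 0.713 CPM (2.66, adjusted p = 0.00904). That share of rises was below the 23.9% of all genes. Retnlg was below 1 CPM in Normoxia_DEX-2 and Normoxia_DEX-3 and needed the hypoxia libraries to pass the filter. The neutrophil sum was 19.4 to 45.2 CPM at 7% O2 and 10.7 to 18.2 CPM at 21% O2, highest in Hypoxia_DEX-2. Lymphocyte markers were nearly absent, with 1 of 14 past the filter.

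**Figure D3:**
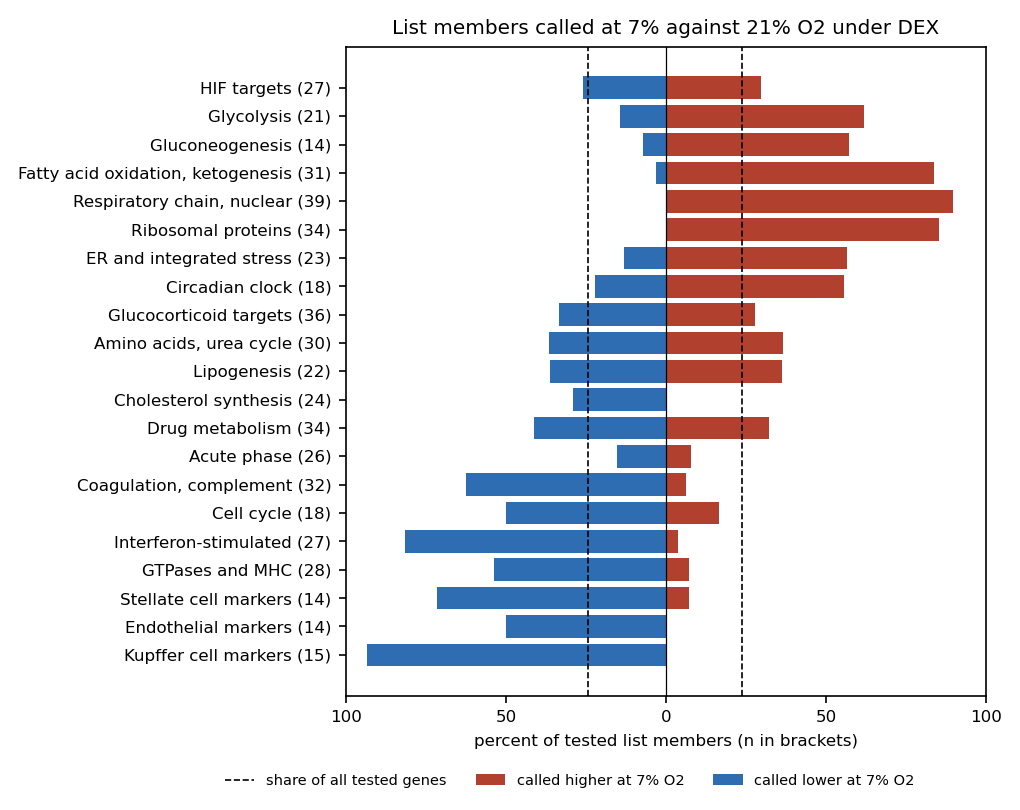
Percent of the tested members of 21 gene lists (rows, number tested in brackets) called higher (red, to the right) or lower (blue, to the left) at 7% against 21% O2 under DEX; dashed lines give the shares of all tested genes, 23.9% higher and 24.5% lower. Fatty acid oxidation, the respiratory chain and ribosomal proteins extend to the right, Kupffer cell markers and interferon-stimulated genes to the left, and HIF and glucocorticoid targets reach little beyond the lines on both sides.

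Among genes for plasma proteins made by hepatocytes, those of coagulation and complement leaned downward. Of 32 coagulation and complement genes 20 fell and 2 rose, with a median of -0.26, 14 with the hypoxia pair summed and 26 without Hypoxia_DEX-2. C8a, a part of the membrane attack complex, stood at 117, 99.4 and 113 CPM against 342, 312 and 223 CPM (-1.41, adjusted p = 0.000302). The lectin Mbl2 and coagulation factor F11 fell (-1.31 and -1.08, adjusted p = 6.34e-06 and 6.54e-06). Of 26 acute phase genes 2 rose and 4 fell, with a median of -0.003, but 12 fell without Hypoxia_DEX-2. With that library both shares were below the 23.9% and 24.5% of all genes. Hamp, the iron hormone hepcidin, stood at 928, 907 and 957 CPM against 434, 783 and 661 CPM (0.57, adjusted p = 0.0604), and passed without Normoxia_DEX-1 or Normoxia_DEX-2, in DESeq2 and with all 12 libraries fitted together (from 0.00267 to 0.229 over the alternatives).

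Inflammatory genes showed where Hypoxia_DEX-2 departs from its group. The median of 22 tested genes of the NF-κB response was 0.99, the highest of the lists with over 20 genes. Without Hypoxia_DEX-2 that median was 0.07. Only 5 rose and 2 fell, against 23.9% and 24.5% of all genes, and 8 rose and 4 fell without that library. Saa3, an acute phase protein of inflamed tissue, stood at 12.8, 182 and 13.7 CPM at 7% O2 and 21.5, 19.4 and 18.2 CPM at 21% O2 (1.79, adjusted p = 0.319), and without Hypoxia_DEX-2 the sign turned to -0.57 (adjusted p = 0.000747). Icam1, an adhesion molecule, stood at 43.8, 298 and 42.6 CPM against 31.01, 27.7 and 24.4 CPM, Relb, an NF-κB subunit, at 4.21, 22.2 and 3.04 against 3.77, 3.27 and 3.62 CPM, and Tnfaip3, an NF-κB inhibitor, at 42.2, 334 and 42.9 against 16.6, 16.4 and 15.5 CPM. Hypoxia_DEX-2 was the only high value for Relb, whereas Icam1 and Tnfaip3 were above normoxia in every hypoxia library and passed without Hypoxia_DEX-2. Their adjusted p with it were 0.143, 0.285 and 0.0826. The chemokine Cxcl1 stood at 202, 309 and 199 CPM against 45.5, 79.8 and 102 CPM (1.64, adjusted p = 0.0205, lost without Hypoxia_DEX-2, Normoxia_DEX-2 or a count filter, with up to 0.0719 over the alternatives). These genes were picked after their values were seen, except Cxcl1.

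**Figure D4:**
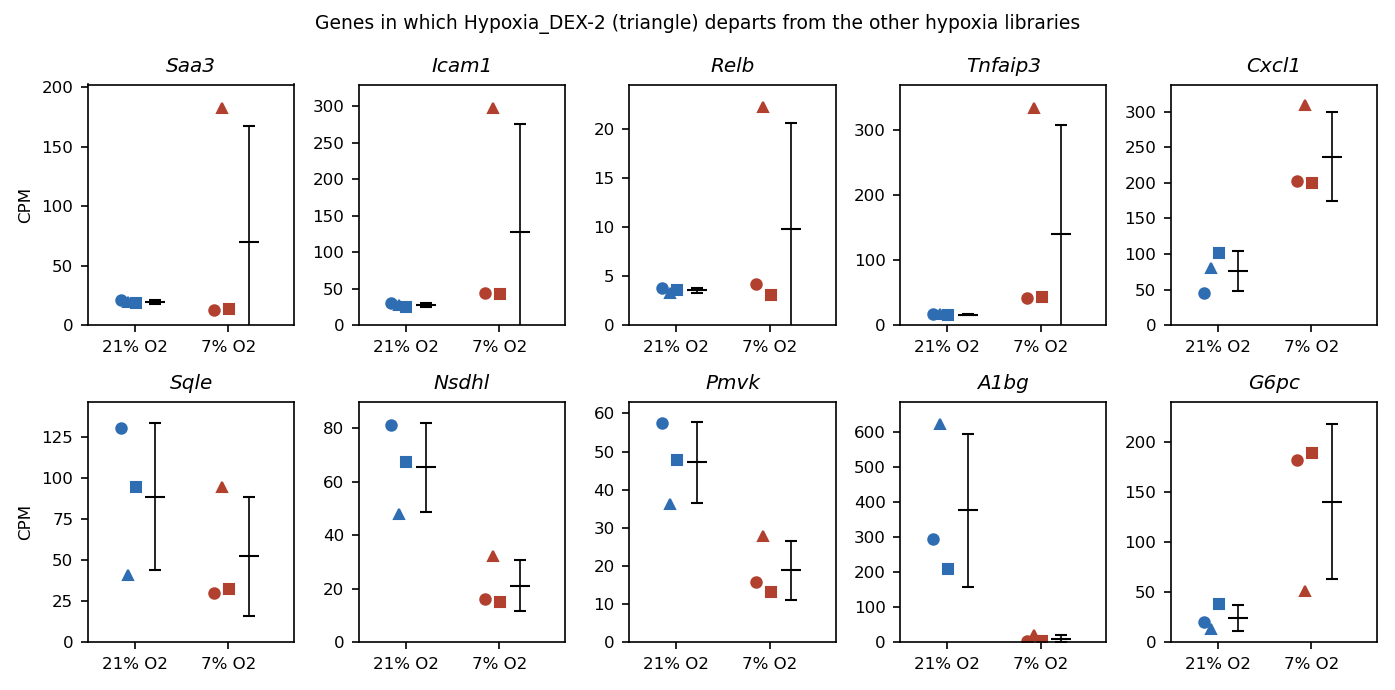
CPM of 10 genes in the 3 Normoxia_DEX (blue) and 3 Hypoxia_DEX (red) libraries; circles, triangles and squares are replicates 1, 2 and 3, and bars are mean ± SD. The triangle of Hypoxia_DEX-2 lies far above its group in Saa3, Icam1, Relb and Tnfaip3, above it in the sterol genes Sqle, Nsdhl and Pmvk, and below it in G6pc.

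Most of the oxygen effect under DEX was also present without DEX. Here values are on a scale set over all 12 libraries, and 12801 genes were tested. Calls under PBS and tests of the difference come from that fit, and calls under DEX, unless stated, from the fit of the 6 DEX libraries. Across the 12236 genes in both fits the log2 fold changes under DEX and under PBS, which share no library, had a Pearson r of 0.815 and a Spearman rho of 0.782 (a description over genes, which are not independent replicates). Of the 5919 genes called under DEX, 3584 were called in the same direction under PBS, which is 60.6% of the DEX calls and 77.1% of the 4646 PBS calls, and 36 were called in the opposite direction. Of the 2299 called under DEX and not under PBS, the difference itself passed in 86. In all the oxygen effect differed between DEX and PBS mice in 174 of 12801 genes (1.36%), 54 with a more positive and 120 with a more negative effect under DEX. In 122 of the 174 the effect was larger in size under DEX, and in 91 the signs were opposite. With the near-identical hypoxia pair summed 20 and 50 genes passed, and over all libraries left out in turn 18 to 93 and 47 to 205.

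Some genes fell with hypoxia under DEX and not under PBS. Ddit4 stood at 114, 80.4 and 106 CPM in Hypoxia_DEX and 135, 167 and 194 CPM in Normoxia_DEX, against 10.5, 19.6 and 10.5 CPM in Hypoxia_PBS and 4.13, 3.80 and 4.68 CPM in Normoxia_PBS (difference of log2 fold changes -2.40, SE 0.36, adjusted p = 0.012). Sgk1 stood at 60.3, 73.3 and 58.5, 112, 135 and 139, 62.6, 67.5 and 61.9 and 30.5, 45.8 and 54.3 CPM in the same order of groups (-1.56, SE 0.25, adjusted p = 0.012). In both genes hypoxia went with lower levels when DEX was given and with higher levels when it was not. Tcim stood at 37.3 ± 6.39 CPM in Hypoxia_DEX and 117 ± 13.3 CPM in Normoxia_DEX, against 17.2 ± 4.76 and 12.3 ± 1.77 CPM with PBS (-2.13, adjusted p = 0.0034). The HIF target Narf differed by -1.72 (adjusted p = 0.000444), with 65.9 ± 5.58 and 179 ± 25.8 CPM under DEX and 50.5 ± 0.862 and 41.7 ± 5.19 CPM under PBS, with the highest mean in Normoxia_DEX.

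Other genes were low in Normoxia_DEX alone. Klf10, a transcription factor of growth factor signalling, stood at 47.1, 49.2 and 54.7 CPM in Hypoxia_DEX and 6.64, 10.2 and 13.6 CPM in Normoxia_DEX, against 65.8, 54.6 and 55.01 CPM in Hypoxia_PBS and 55.5, 42.04 and 42.5 CPM in Normoxia_PBS (1.99, SE 0.28, adjusted p = 0.00792). The early response gene Egr1 (1.56, adjusted p = 0.00731) and Bhlhe40 (1.28, adjusted p = 0.0127, and 0.0502 without Normoxia_PBS-2) had the same pattern, with means of 29.3 ± 2.74 and 67.02 ± 14.3 CPM in Normoxia_DEX and 77.3 ± 7.18 and 174 ± 8.74 CPM in Hypoxia_DEX. Plk3 stood highest in Hypoxia_DEX, at 177, 144 and 191 CPM, and lowest in Normoxia_DEX, at 41.7, 36.9 and 37.5 CPM, with 71.1, 106 and 92.4 CPM in Hypoxia_PBS and 85.7, 57.9 and 68.7 CPM in Normoxia_PBS (1.80, adjusted p = 0.00405).

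For the genes that lead the report the difference mostly did not pass. Pdk4 rose by 3.57 under DEX and had -0.73 under PBS, a difference of 4.30 with an SE of 0.97 (adjusted p = 0.0864). Its Normoxia_PBS libraries spread widely, at 55.3, 10.7 and 7.58 CPM, and the difference passed without Normoxia_PBS-1 or Normoxia_PBS-3 and in DESeq2 (adjusted p from 0.000763 to 0.189 over the alternatives). Tsc22d3 differed by -1.15 (adjusted p = 0.0699) and passed without Hypoxia_PBS-3 and in DESeq2 (0.00176 to 0.193 over the alternatives). Fkbp5 had 1.31 under PBS (adjusted p = 0.00271) and -0.01 under DEX, a difference of -1.32 that did not pass (adjusted p = 0.119), except in DESeq2 (0.00402 to 0.301 over the alternatives). The oxygen effects on Cyp4a10, Clec4f and Pdk1 differed between DEX and PBS mice by -0.14, -0.29 and 0.11 (SE 0.37, 0.25 and 0.11, adjusted p of 0.92, 0.687 and 0.724). Counted by list, 12 glucocorticoid targets rose and 3 fell under PBS, where 19.0% of all genes were higher and 18.6% lower. Under DEX in the same 12-library fit 8 rose and 7 fell, among 2955 and 2782 of the 12801 genes tested. In the fit of the 6 DEX libraries 10 rose and 12 fell. The difference passed in 2 of the 36, against 1.36% of all genes. Drug metabolism held 4 of 34 genes with a more negative effect under DEX. Among other lists, the circadian clock and growth arrest held 2 each, and 1 each with a more positive effect. Fatty acid oxidation and ketogenesis, with 31 genes, and growth hormone, insulin and IGF signalling, with 22, held 2 each with a more positive effect and 0 with a more negative one. Lists not named here held at most 1 in each direction. The respiratory chain, ribosomal proteins and Kupffer markers held 0 of 39, 34 and 15. With 1.36% of all genes called, lists of that size hold few such calls, so 0 does not set them apart from other genes.

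**Figure D5:**
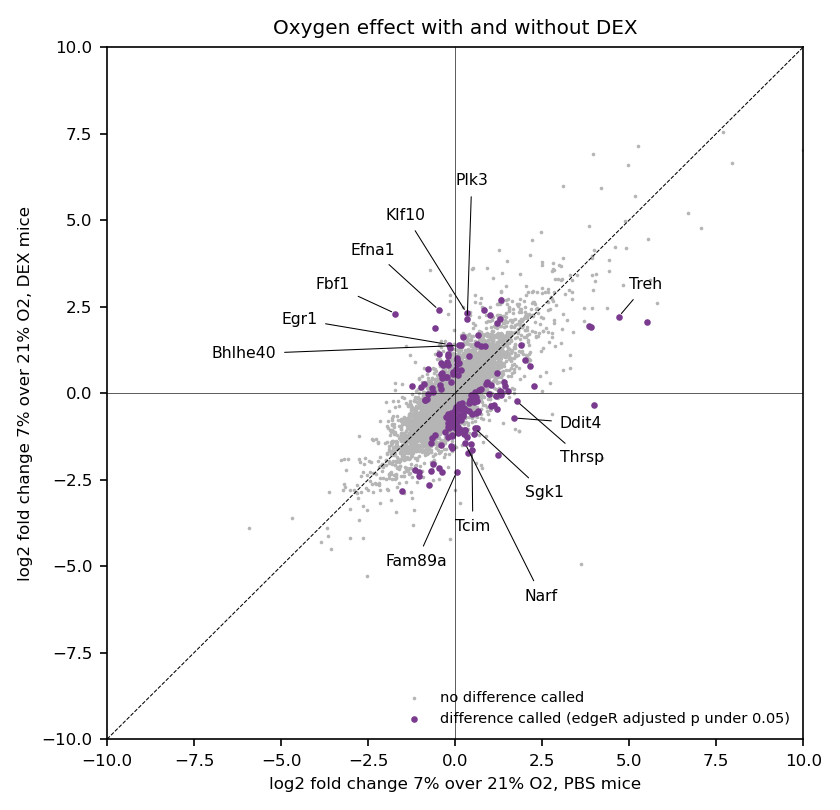
Log2 fold change of 7% over 21% O2 in PBS mice (x axis) and DEX mice (y axis) for 12801 genes; purple points are the 174 whose oxygen effect differed between DEX and PBS mice, and the dashed line marks equal effects. Most genes lie along the line; Ddit4, Sgk1, Narf and Tcim lie below it with negative values under DEX, and Klf10, Egr1, Bhlhe40 and Plk3 above it.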

How the data were processed

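The authors deposited raw counts of reads per gene for 12 mouse liver libraries, whole numbers without normalization. The submitters' processing notes list the build mm10 and, with no roles, featureCounts, HISAT2 2.0.4, Trimmomatic, SAMtools and DESeq2. Which annotation and strand setting the counting used is not given in the sources used, so overlapping genes and near-identical copies can share reads. Per the labels' protocols the libraries were stranded and made from mRNA. Symbols were matched for 54723 of 54838 identifiers, and gene positions are from GENCODE release M21 on mm10.

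Here genes with at least 1 CPM in at least 3 of the 6 DEX libraries were kept (12236), scaled by TMM and fitted in edgeR 4.0.16 (R 4.3.3) with the robust quasi-likelihood model and 4 residual degrees of freedom. The test of whether the oxygen effect differed between DEX and PBS mice used all 12 libraries (12801 genes, 8 residual degrees of freedom). Adjustment (Benjamini-Hochberg) covered every tested gene, with a threshold of 0.05. The scripts of both fits were tested on simulated data with known changes, where, with each gene given its own spread, false calls exceeded the nominal share in the 6-library fit. DESeq2 1.42.0 and the settings of the closing section were alternatives. Nothing in the labels says how the animals were assigned to libraries, so the p-values measure the spread between these libraries.

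Named genes were the 8 largest rises and falls with at least 5 CPM in 1 group and groups that did not overlap (without clone models, immunoglobulins and major urinary proteins), up to 4 called members per list, a fixed set of 24 genes, and the 5 most positive and negative differences between DEX and PBS mice. A few genes that the rule names are not reported here. Genes outside this rule are said to be chosen after their values were seen, and members named only to complete a list (Mx2) or given as part of one were too. The comparison, the lists and the rule were chosen with earlier results of these data known. Total counts per library limit what can be seen of genes near 1 CPM. Promoters are from RefSeq, and figures were drawn with matplotlib 3.10.9.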

Additional observations from a re-analysis of the deposited data

Results flagged for a closer look

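The oxygen effect differed between DEX and PBS mice, by a test of that difference in edgeR's 12-library fit, in the following genes named by the rule or by the text. Each value is the log2 fold change of hypoxia over normoxia under DEX minus that under PBS. Kept in every alternative tried were Ddit4 at -2.40, Tcim at -2.13, Narf at -1.72, Sgk1 at -1.56, F11 at -1.23 and the antioxidant enzyme gene Srxn1 at -0.89, and on the positive side Klf10 at 1.99, Plk3 at 1.80 and Egr1 at 1.56. Bhlhe40 at 1.28 was lost without Normoxia_PBS-2 (adjusted p = 0.0502).

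The remaining 9 were less firm. Fbf1, a gene of the centriole, differed by 4.01 and the ephrin ligand Efna1 by 2.86. Both were lost without any 1 of the Hypoxia_DEX or Hypoxia_PBS libraries, without Normoxia_DEX-1 or without Normoxia_PBS-1, Fbf1 also without Normoxia_PBS-3 and Efna1 also without Normoxia_PBS-2 (adjusted p up to 0.0798 and 0.101). The trehalase gene Treh differed by -2.49, at 2.05 to 11.6 CPM under DEX, and was lost when any 1 library other than Hypoxia_DEX-2 was left out (adjusted p up to 0.11). The stress-induced growth inhibitor Osgin1 differed by 2.45 and was lost without Hypoxia_DEX-1, Hypoxia_DEX-3, Normoxia_PBS-1 or Normoxia_PBS-2 (up to 0.0667). Fam89a differed by -2.32 and was lost without those 4 or without Normoxia_DEX-2 or Normoxia_DEX-3 (up to 0.0731).

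The lipogenic regulator Thrsp differed by -2.0 and was lost without any 1 Hypoxia_DEX library, or without Hypoxia_PBS-2, Normoxia_DEX-2, Normoxia_DEX-3 or Normoxia_PBS-2 (up to 0.0689). Socs3 differed by 1.57, Ddit3 by 1.45 and Irs2 by 1.38, with adjusted p of 0.0402, 0.0479 and 0.0342. Leaving out 1 library lost the call of Socs3 except for Hypoxia_DEX-2, Hypoxia_PBS-1 and Normoxia_PBS-1, that of Ddit3 except for Hypoxia_PBS-1 and Hypoxia_PBS-3, and that of Irs2 except for Normoxia_DEX-1, Normoxia_PBS-1 and Normoxia_PBS-3 (adjusted p up to 0.11, 0.128 and 0.094). All 9 were also lost with the near-identical hypoxia pair summed. The replicate block ended the calls of Fbf1, Efna1, Socs3 and Irs2 (adjusted p = 0.0503, 0.0624, 0.0867 and 0.0651), fitting without a count filter those of Efna1, Socs3, Irs2 and Thrsp, and RLE size factors and the filterByExpr filter that of Ddit3 (0.0541 and 0.056).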

How the results depend on the processing

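The counts of genes under DEX, 2921 higher and 2998 lower, stayed within 1.5 times under RLE size factors, DESeq2 (2708 and 2533), other count filters (3305 and 3656 without one), all 12 libraries in the fit, the hypoxia pair summed, the replicate block (2847 and 2874) and with each library left out (2341 to 3045 higher and 2325 to 3165 lower). At least 2-fold, 633 and 739 remained. Same-numbered libraries deviated together with r of only 0.0104 to 0.0380, below the 0.1 set for pairing them in the main fit. Yet 5 of 6 libraries correlated best with their own number. A weak pairing by number was not tested beyond the replicate block. Of 114 called genes named in the text, 104 kept the call in every alternative, and the other 10 are G6pc, Nsdhl, Pmvk, Ldha, Cxcl1, A1bg, Ddit4, Thrsp, Mx2 and Plin4. The replicate block ended the calls of Nsdhl and Pmvk and of no other of the 114. The last 3 were lost with all 12 libraries in the fit (adjusted p up to 0.45), Thrsp also without Normoxia_DEX-3. Changes of sign, mostly in genes that did not pass, were as follows. With 1 library left out Fkbp5 ranged from -0.0464 to 0.0334, Egln3 from -0.180 to 0.129, Vegfa from -0.119 to 0.0269, Cyp7a1 from -0.454 to 0.353 and Saa3 from -0.572 (without Hypoxia_DEX-2) to 2.29. Vegfa stood at 0.0173 with the pair summed, and Cyp7a1 at 0.0183 with the replicate block.

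The count of genes whose oxygen effect differed between DEX and PBS mice was far less firm. Against 54 higher and 120 lower, DESeq2 gave 121 and 255, no count filter 85 and 175, the replicate block 56 and 105, the hypoxia pair summed 20 and 50, and a 2-fold minimum 25 and 59. Leaving out 1 library gave 18 (without Hypoxia_DEX-3) to 93 (without Hypoxia_PBS-1) higher and 47 to 205 lower. It also moved a count by over 1.5 times without Hypoxia_DEX-1 or Hypoxia_PBS-3, without replicate 2 or 3 of Normoxia_DEX, and without replicate 1 or 2 of Normoxia_PBS (20 to 33 higher and 50 to 74 lower). Fewer samples enter those fits, and the cause was not tested beyond that. With 3 libraries per group, small effects in genes of few counts are the least certain.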
